A study of Mus musculus with 12 samples.

Results

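The genes described here are the ribosomal protein pseudogenes of the mouse that were counted in intestinal enteroids, miniature epithelial organs grown from crypts. They were chosen by symbol alone, as every listed gene whose symbol starts with Rps or Rpl and carries the ending -ps, with or without a number. This gave 150 of the 18929 genes listed in either deposited table, 63 named after small subunit proteins and 87 after large subunit proteins, from 52 parent genes. A family here is a parent gene with its listed -ps copies. Copies under other symbols, if counted, enter no family sum or share. Polyadenylated RNA was sequenced in 12 libraries of jejunal enteroids grown for 5 days in ENR medium, a medium with EGF, Noggin and R-spondin. There were 4 control libraries (villin-Cre), 4 Hdac1-deficient and 4 Hdac2-deficient ones. The mutants carried floxed Hdac1 or Hdac2 alleles deleted by Cre under the villin promoter, which is active in intestinal epithelial cells, on a mixed background of C57BL/6J, 129SV and CD1. The methods name 1 mouse per genotype as the source of crypts. Whether the 4 libraries of a group were cultures of 1 line or came from separate mice is not given. Genotype therefore cannot be told apart from the mouse and the enteroid line grown from it. The p-values measure only the spread between these libraries. HDAC1 and HDAC2 are the enzymes that remove acetyl groups from histones within repressor complexes.

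Ribosomal protein genes are among the most abundantly transcribed genes of a cell, and their short spliced mRNAs have been copied back into the genome many times by reverse transcription. Such a processed pseudogene lacks the introns and the promoter of its parent and usually stays silent unless sequences near its landing site drive it. Because the copies remain close to the parent in sequence, a read from one can match the other, and a count for a pseudogene depends on how the aligner and the counting program place such reads.

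Stretches of several of the pseudogenes are shown beside their parents, to let the bases be seen that set a copy apart from its parent. All are from GENCODE M21 on GRCm38 and are written 5′ to 3′ in the sense of the parent mRNA. Positions are counted from 1 at the A of the parent's start codon. Capitals mark the bases at which a pseudogene shown here and its parent differ. Bases 396 to 444 of the Rps13 coding sequence hold both differences of Rps13-ps1, T411C and A429G, and this stretch of the copy lies at chr8:87048115-87048163 on the plus strand.
Rps13: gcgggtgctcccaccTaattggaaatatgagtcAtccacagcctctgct
Rps13-ps1: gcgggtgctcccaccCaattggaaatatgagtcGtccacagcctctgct

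Bases 1 to 60 of Rps15a are shown for the 3 copies with the highest counts in this family, all on the minus strand, with the stretches at chr11:6172977-6173036 for Rps15a-ps6, chr2:152185623-152185682 for Rps15a-ps7 and chr4:53791397-53791456 for Rps15a-ps8. C7T turns the third codon of Rps15a-ps6 into a stop. C7G and G8A are held by Rps15a-ps7 and Rps15a-ps8 and by no other listed Rps15a copy.
Rps15a: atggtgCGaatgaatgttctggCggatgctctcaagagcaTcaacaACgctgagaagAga
Rps15a-ps6: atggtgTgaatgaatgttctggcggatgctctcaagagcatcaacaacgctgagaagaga
Rps15a-ps7: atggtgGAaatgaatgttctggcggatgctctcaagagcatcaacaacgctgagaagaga
Rps15a-ps8: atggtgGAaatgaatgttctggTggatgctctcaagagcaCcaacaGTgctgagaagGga

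Bases 258 to 288 of Rps24 separate its 2 listed copies, and the stretches lie at chrX:79195304-79195334 for Rps24-ps3 and chr3:3792154-3792184 for Rps24-ps2, both on the plus strand.
Rps24: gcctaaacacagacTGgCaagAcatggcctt
Rps24-ps3: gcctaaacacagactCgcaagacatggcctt
Rps24-ps2: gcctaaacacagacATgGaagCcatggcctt

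Bases 354 to 405 of Rps19 hold 3 of the 5 differences of Rps19-ps6, which lies on the plus strand with this stretch at chr12:110898467-110898518.
Rps19: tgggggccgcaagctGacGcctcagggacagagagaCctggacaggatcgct
Rps19-ps6: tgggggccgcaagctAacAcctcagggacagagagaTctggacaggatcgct

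Bases 429 to 468 of Rps2 are shown with those of the member with the highest count, Rps2-ps13, a stretch at chrX:52899016-52899055 on the plus strand.
Rps2: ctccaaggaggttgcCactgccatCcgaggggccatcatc
Rps2-ps13: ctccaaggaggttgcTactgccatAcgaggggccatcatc

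Bases 771 to 801 of Rpl3 hold T786C, 1 of the 2 differences that Rpl3-ps1 has, in a stretch at chrX:13203342-13203372 on the plus strand.
Rpl3: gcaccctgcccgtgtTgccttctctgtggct
Rpl3-ps1: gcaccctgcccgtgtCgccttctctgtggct

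GENCODE M21 held 149 of the 150 members, all but Rpl31-ps12. Of these, 139 were annotated as processed pseudogenes, 5 as transcribed processed pseudogenes and 5 as protein coding. They lay on 20 chromosomes, with 13 on chromosome 3 and 12 each on chromosome 4 and X. The members overlapping no other gene numbered 97, 32 lay only in an intron of a gene on the opposite strand, and 13 only in an intron of a gene on the same strand. For 148 members at least 50% of the parent coding sequence could be aligned, with an identity from 86.5% to 100%, a median of 98.5%, and 13 copies identical to the parent over the aligned coding bases. The largest families were those of Rpl31, with 11 members, and of Rps12 and Rpsa, with 8 each.

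To describe how far a read could tell a member from its relatives, every stretch of 100 bases, the length of 1 read, was searched in the other annotated transcripts. The median member had 31.3% of its stretches found unchanged elsewhere, while 18 members had all of them elsewhere and 23 had none. Among the 21 members with sequence that were called in any comparison (by the thresholds given with the comparisons), the median was 32.0%, against 49.8% among the 70 that were tested and not called. Rps24-ps2, Rps15a-ps2 and Rps15a-ps8 had no stretch elsewhere, whereas Rps16-ps2 had all of them in the Rps16 mRNA. As paired reads were sequenced, a pair could span more bases than 1 stretch.

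Library depth lay between 20693200 and 30658628 counts. Hdac1 itself had 2155 to 2818 counts in the control libraries and 90 to 155 in the Hdac1-deficient ones, a log2 fold change of -4.40 (SE 0.08, adjusted p = 5.6e-19). Hdac2 had 3359 to 4174 counts in control and 1522 to 2114 in the Hdac2-deficient libraries, a log2 fold change of -0.84 (SE 0.04, adjusted p = 1.7e-14) that stayed under 2-fold, and the gene counts do not separate deleted from remaining exons. All 11 epithelial markers examined were listed, with summed levels of 5776 to 6194 CPM (the count scaled to library size) in control, 7602 to 7763 in the Hdac1-deficient and 7462 to 7805 in the Hdac2-deficient libraries. Markers of fibroblasts and muscle, immune cells and endothelium summed to at most 0.356, 1.74 and 0.508 CPM in any library. Xist, the RNA that coats and silences an X chromosome, had 34 to 52 counts in control libraries, 22832 to 29663 in the Hdac1-deficient and 12656 to 14572 in the Hdac2-deficient ones. Its part in the values of the 12 X-linked members was not tested. The sex of the source mice is not given. As Xist separates control from both mutants, this difference cannot be told apart from genotype for any gene.

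Most members were counted at low levels. The mean count over the 12 libraries was under 10 for 63 members, from 10 to under 100 for 65, from 100 to under 1000 for 19, and 1000 or more for 3. Together they held 0.127% to 0.136% of all counts in the control libraries, 0.0710% to 0.0796% in the Hdac1-deficient and 0.0725% to 0.0845% in the Hdac2-deficient ones. The group of controls thus did not overlap with either mutant group in this share. Rps2-ps13 alone took 41.9% to 43.4% of the members' counts in control, 53.7% to 55.9% in the Hdac1-deficient and 58.8% to 63.6% in the Hdac2-deficient libraries. Without it the members' share of all counts was 0.0726% to 0.0786% in control, 0.0313% to 0.0359% in the Hdac1-deficient and 0.0277% to 0.0314% in the Hdac2-deficient libraries. This drop rested largely on a few copies with high counts. Rps2-ps10 had log2 fold changes of -5.10 and -4.94 (Hdac1-deficient and Hdac2-deficient). The Rpl3 pseudogenes went from 142 CPM in control to 58.9 and 57.5. Those of Rps13 went from 53.8 to 3.47 and 3.29. Against this, the Rps24 pseudogenes went from 5.48 to 69.4 in the Hdac1-deficient enteroids. Those of Rps19 went from 5.70 to 17.1 in the Hdac2-deficient ones. The median tested member had -0.37 and -0.38. The 52 parent genes, which encode proteins of the cytosolic ribosome, held 4.39% to 4.82%, 3.40% to 3.71% and 3.59% to 3.72% of all counts. In bulk RNA a change in the cells present and a change in RNA per cell cannot be told apart.

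**Figure D1:**
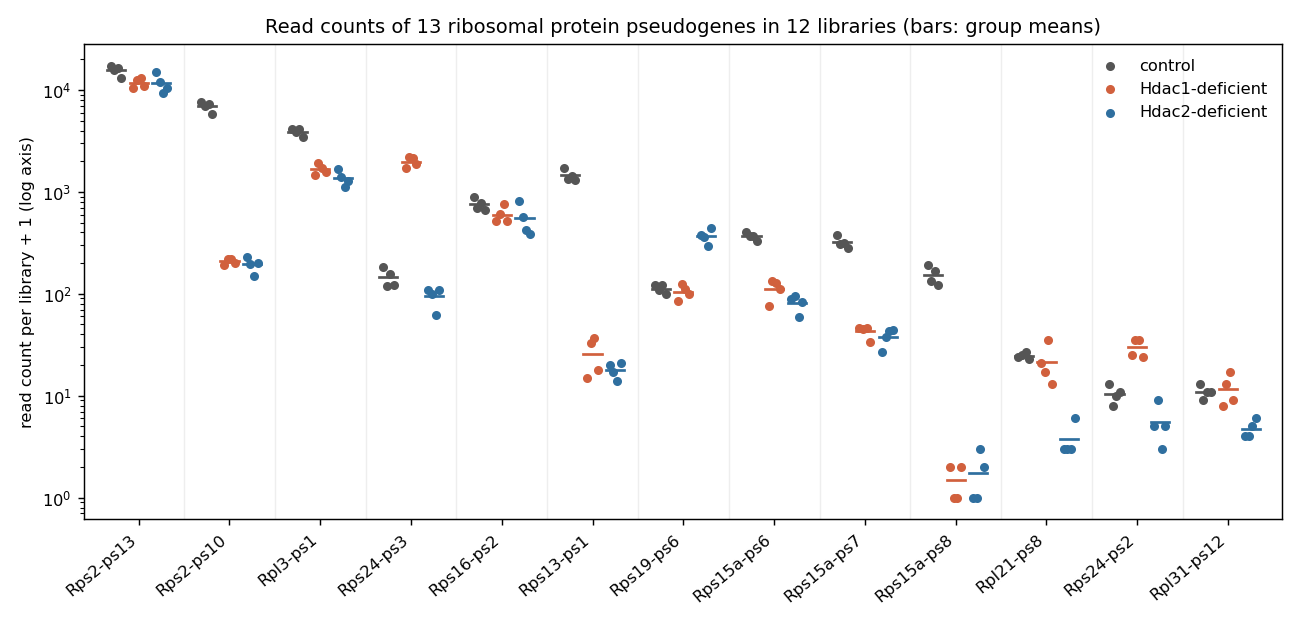
Read counts plus 1 (log axis) of 13 ribosomal protein pseudogenes in each of the 12 libraries, with 1 point per library and a bar at each group mean. Rps2-ps10, Rps13-ps1 and the 3 Rps15a copies stand far lower in both mutant groups, Rps24-ps3 is high only in the Hdac1-deficient libraries, and Rps19-ps6 only in the Hdac2-deficient ones.

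A gene counted as called when edgeR's quasi-likelihood test, with Benjamini-Hochberg adjustment over all genes tested, gave an adjusted p no higher than 0.05 and the change exceeded 2-fold. A gene is said to have fallen or risen where it passed the adjusted p. The comparisons of the mutants with control share the 4 control libraries, so their values are given side by side and are not 2 independent results. In the Hdac1-deficient enteroids, 88 members passed the filter on low counts, of which 9 were decreased and 2 increased. Of all 14246 genes tested there, 3.71% were decreased and 6.87% increased. In the Hdac2-deficient enteroids, 88 were tested, with 16 decreased and 1 increased, where 2.84% and 5.45% of the 14007 genes tested were called. The members that were tested in none of the comparisons numbered 57, with mean counts of 1.17 to 8.50.

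With no limit on the fold, 45 of the 88 members tested fell in the Hdac1-deficient enteroids (51.1%, against 31.9% of all genes) and 4 rose (against 32.7%). In the Hdac2-deficient enteroids 41 fell (46.6%, against 30.9%) and 3 rose (against 31.4%). The median log2 fold change of the tested members was -0.37 in the Hdac1-deficient and -0.38 in the Hdac2-deficient enteroids, where the median of all genes was 0.00 in both. On the CPM scale, all 4 libraries lay under every control library for 38 members in the Hdac1-deficient group, where 30.4% of all genes did so, and above for 3 (28.1%). In the Hdac2-deficient group they lay under for 31 members (28.4% of all genes) and above for 1 (27.6%). The middle of the members thus lay a little under 0, as did that of their parents. Of the 52 parents, 50 fell in the Hdac1-deficient and 49 in the Hdac2-deficient enteroids, with medians of -0.36 and -0.31. Of the 79 cytosolic ribosomal protein genes as a whole, 76 and 73 fell and 3 rose in each. Pseudogenes of other families (181 listed) did not lie to one side, with medians of -0.03 over 85 tested and 0.05 over 79 tested. Of these, 11 and 6 were increased (12.9% and 7.59%, against 6.87% and 5.45% of all genes). A further 9 and 6 were decreased (10.6% and 7.59%, against 3.71% and 2.84%). Among the ribosomal protein pseudogenes 10.2% and 18.2% were decreased and 2.27% and 1.14% increased. The decreased share in the Hdac1-deficient enteroids was thus close to that of the other families.

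**Figure D2:**
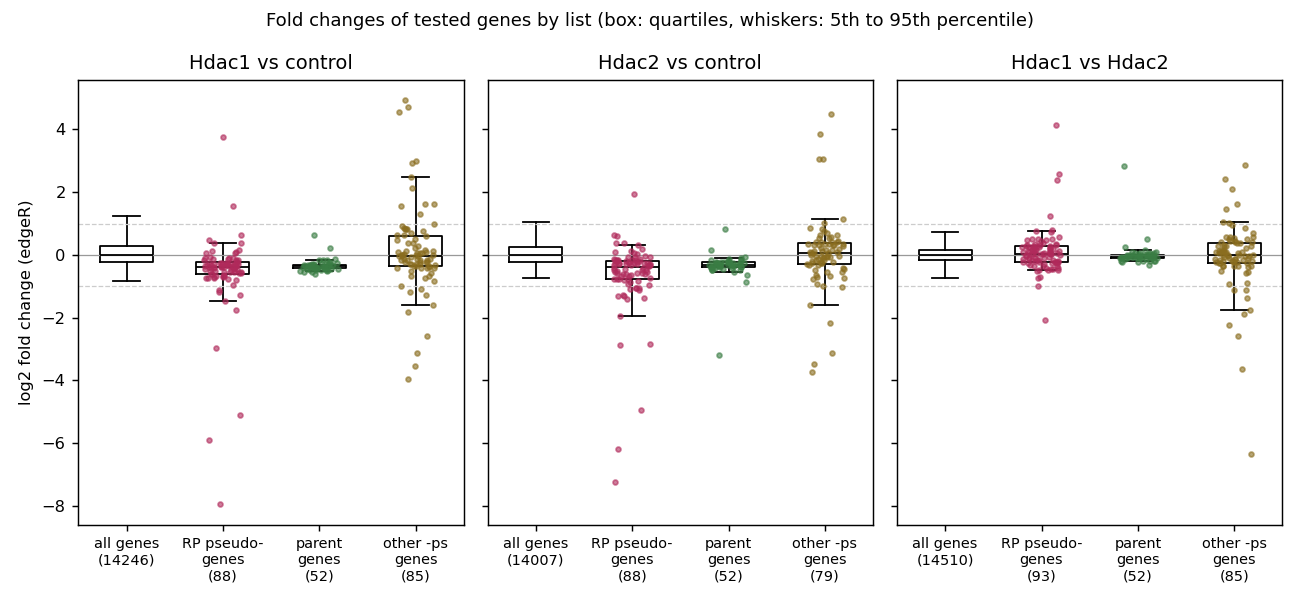
Log2 fold changes of all genes tested, ribosomal protein (RP) pseudogenes, their parent genes and other -ps pseudogenes in the 3 comparisons, with 1 point per gene, boxes at the quartiles and whiskers at the 5th and 95th percentiles (all genes as a box alone). The parents form a narrow band a little under 0 in both comparisons with control, and the pseudogenes have the same middle but a tail reaching further down, whose lowest point in the Hdac1-deficient and Hdac2-deficient enteroids (Rps15a-ps8) is a fitted value on 0 to 2 counts per mutant library.

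A member's fold change was within 0.5 (log2) of that of its parent for 67 of 88 members in the Hdac1-deficient and 58 of 88 in the Hdac2-deficient enteroids, and differed by more than 1 for 12 and 13. The median of the difference, member minus parent, was 0.00 and -0.11. Of the 12 tested copies identical to the parent, 9 fell and 1 rose in the Hdac1-deficient enteroids and 3 fell and 1 rose in the Hdac2-deficient ones, with medians of -0.36 and -0.16, where 31.9% and 30.9% of all genes fell. The 1 that rose was Rps13-ps2 in both. Among the copies identical to their parents, Rps16-ps2, a copy of a small subunit protein gene, had the highest count. It had 900, 691, 773 and 664 counts in control, 517, 607, 759 and 512 in the Hdac1-deficient, and 811, 564, 426 and 389 in the Hdac2-deficient libraries, so that all groups overlapped. Its log2 fold changes of -0.37 (SE 0.09, adjusted p = 0.0030) and -0.25 (SE 0.17, adjusted p = 0.26) stand beside -0.35 and -0.34 of Rps16.

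Of the 12 X-linked members, 5 or 6 were tested. In the Hdac1-deficient enteroids 3 of the 5 tested fell and 1 rose, with a median of -0.43, and in the Hdac2-deficient enteroids 5 of 6 fell, with a median of -0.50. Among members on other chromosomes 42 and 36 of 82 fell, with medians of -0.37 and -0.35. Over all genes tested, 31.9% and 30.9% fell.

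The Rps2 family held the most pseudogene counts. RPS2 is a protein of the small subunit near the mRNA channel. Rps2-ps10, annotated as a transcribed processed pseudogene in an intron of Pde6a on the opposite strand, had 7627, 7042, 7366 and 5802 counts in control, 189, 220, 217 and 201 in the Hdac1-deficient and 228, 194, 149 and 201 in the Hdac2-deficient libraries. The control libraries were thus all far above both mutants, and the mutants overlapped each other. Its level was 248 ± 6.03 CPM (SD, n = 4) in control, 7.15 ± 0.0908 in the Hdac1-deficient and 7.98 ± 0.703 in the Hdac2-deficient enteroids. It was 34.3-fold lower in the Hdac1-deficient (log2 -5.10, SE 0.04, adjusted p = 2.8e-25) and 30.7-fold lower in the Hdac2-deficient enteroids (log2 -4.94, SE 0.05, adjusted p = 1.8e-25).

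Rps2-ps13, a processed pseudogene at chrX:52898588-52899469, had 17357, 15722, 16322 and 13109 counts in control, 10543, 12532, 13046 and 11061 in the Hdac1-deficient, and 14883, 12076, 9272 and 10483 in the Hdac2-deficient libraries. It fell by less than 2-fold in both, with log2 fold changes of -0.43 (SE 0.03, adjusted p = 1.1e-09) and -0.20 (SE 0.06, adjusted p = 0.0084), and was lower in the Hdac1-deficient than in the Hdac2-deficient enteroids (log2 -0.24, adjusted p = 0.00096). The 2 copies are close relatives: all 5 substitutions of Rps2-ps10 against Rps2 are among the 7 of Rps2-ps13, and 92.4% of the 100-base stretches of Rps2-ps10 and 76.5% of those of Rps2-ps13 occur in other transcripts. In the Hdac1-deficient enteroids the closely related copies nevertheless had log2 fold changes of -5.10 and -0.43.

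Another copy, Rps2-ps6, named after its values were seen, had 10 to 25 counts in control, 15 to 25 in the Hdac1-deficient and 18 to 28 in the Hdac2-deficient libraries, a log2 difference from control of 0.11 (SE 0.27, adjusted p = 0.73) in the Hdac1-deficient and 0.60 (SE 0.25, adjusted p = 0.043) in the Hdac2-deficient enteroids. Rps2 itself rose in both mutants. Its counts were 22633, 19498, 21354 and 17331 in control, 28931, 34551, 34639 and 29337 in the Hdac1-deficient and 35470, 33314, 26014 and 28680 in the Hdac2-deficient libraries. Its log2 fold changes of 0.63 (SE 0.04, adjusted p = 8.2e-12) and 0.84 (SE 0.03, adjusted p = 4.9e-15) made it 1 of the 2 parents that rose. The sum of Rps2 and its 6 named pseudogenes was 1526 ± 49.0 CPM in control, 1517 ± 44.2 in the Hdac1-deficient and 1769 ± 72.9 in the Hdac2-deficient enteroids (SD, n = 4). The log2 fold change of this sum was 0.00 in the Hdac1-deficient (SE 0.04, adjusted p = 0.91) and 0.22 in the Hdac2-deficient enteroids (SE 0.03, adjusted p = 7.2e-06). The pseudogenes took 52.2% to 53.9% of the family counts in control, 27.0% to 27.8% in the Hdac1-deficient and 26.6% to 29.9% in the Hdac2-deficient libraries. Against control, the pseudogenes lost 390 CPM and the parent gained 381 CPM in the Hdac1-deficient enteroids, and the corresponding values were 315 and 558 CPM in the Hdac2-deficient enteroids. Whether reads moved between the copies was not tested.

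**Figure D3:**
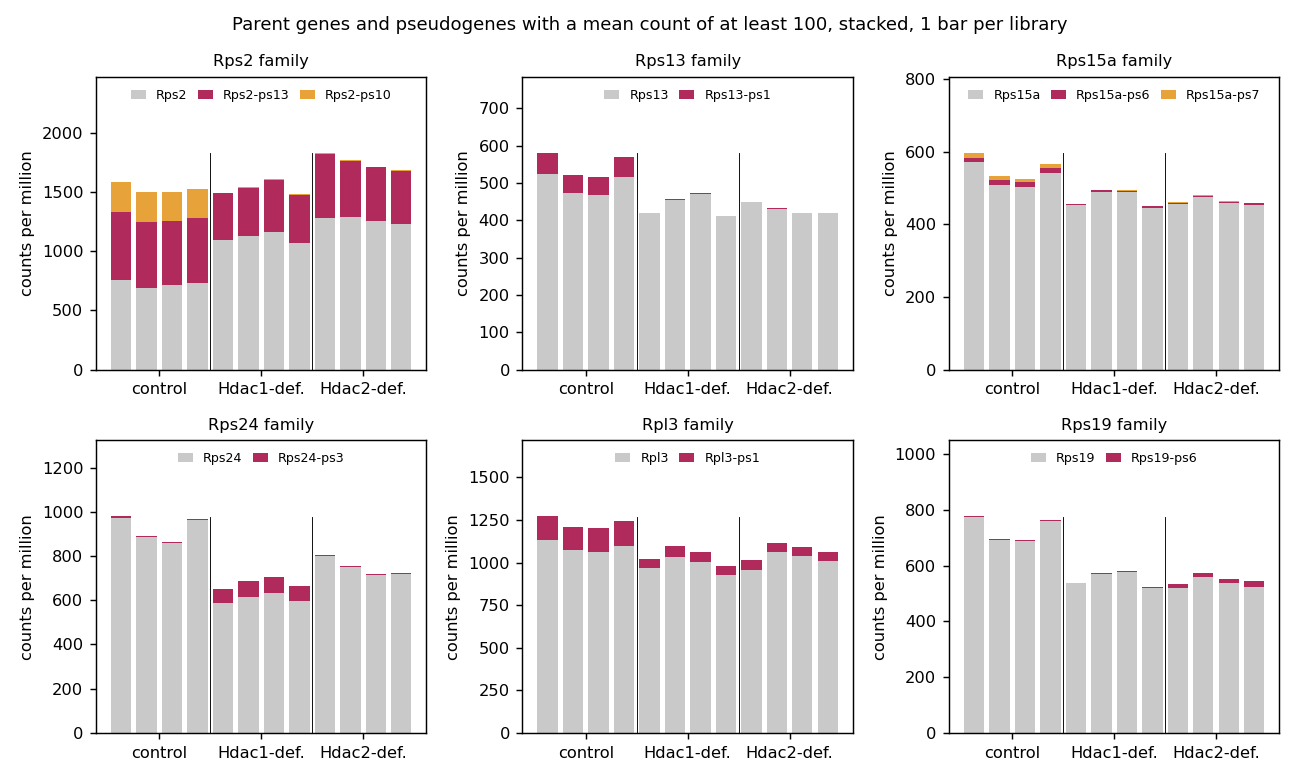
CPM (counts scaled to the library total) of 6 parent genes (grey) and their pseudogenes with a mean count of at least 100 (coloured), stacked, with 1 bar per library and vertical lines between the groups. The coloured part of the Rps2, Rps13, Rps15a and Rpl3 bars shrinks in both mutants, that of Rps24 grows only in the Hdac1-deficient libraries and that of Rps19 in the Hdac2-deficient ones.

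Rps13-ps1 lost most of its counts in both mutants. Its parent encodes a small subunit protein, and the copy lies in no other gene at chr8:87047689-87048226. It had 1718, 1325, 1441 and 1312 counts in control, 14, 32, 36 and 17 in the Hdac1-deficient and 19, 16, 13 and 20 in the Hdac2-deficient libraries. No mutant library reached the lowest control library, and the mutants overlapped each other. The level of 51.8 ± 5.26 CPM in control stood against 0.839 ± 0.318 in the Hdac1-deficient and 0.706 ± 0.113 in the Hdac2-deficient enteroids (SD, n = 4). It was 59.5-fold lower in the Hdac1-deficient (log2 -5.90, SE 0.14, adjusted p = 1.3e-13) and 72.3-fold lower in the Hdac2-deficient enteroids (log2 -6.18, SE 0.12, adjusted p = 9.7e-18). The parent Rps13 changed little beside it, with log2 fold changes of -0.17 in both. The pseudogenes took 9.43% to 10.2% of the family counts in control, 0.707% to 0.882% in the Hdac1-deficient and 0.599% to 0.849% in the Hdac2-deficient libraries, and the log2 fold change of the family sum was -0.31 in both.

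The other Rps13 copies that were tested did not follow it. Rps13-ps4 had log2 fold changes of 0.05 and -0.25, and Rps13-ps5 was tested in no comparison. Rps13-ps2, identical to the parent and named after its values were seen, had 26 to 39 counts in control, 46 to 63 in the Hdac1-deficient and 33 to 53 in the Hdac2-deficient libraries. It rose, with log2 fold changes of 0.63 in both comparisons (adjusted p = 0.0048 and 0.0099). T411C, 1 of the 2 substitutions of Rps13-ps1, is shared by 3 of the 4 Rps13 copies.

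The Rps15a family had the most called members, 3 of 6 tested in the Hdac1-deficient and 5 of 6 in the Hdac2-deficient enteroids. RPS15A is a small subunit protein. Rps15a-ps8, at chr4:53791070-53791456, was the only member with at least 10 counts in every library of one group and at most 3 in every library of another. It had 190, 134, 167 and 120 counts in control, 1, 0, 0 and 1 in the Hdac1-deficient, and 0, 0, 2 and 1 in the Hdac2-deficient libraries. Against a limit of 3 counts in the shallowest mutant library it was at least 48.1-fold lower in the Hdac1-deficient and at least 37.3-fold lower in the Hdac2-deficient enteroids (adjusted p = 3.1e-14 and 5.1e-14). It is also the most diverged copy of this family, at 92.2% identity with 30 mismatches, so that none of its 100-base stretches occurs elsewhere. Without control replicate 2, Rps15a-ps2 also met these limits, as did Rpl21-ps8 without Hdac2 replicate 4, giving 2 members in each case.

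Rps15a-ps7, at chr2:152185291-152185682, had 380, 304, 314 and 282 counts in control, 45, 44, 45 and 33 in the Hdac1-deficient and 26, 37, 42 and 43 in the Hdac2-deficient libraries. It was 7.80-fold lower in the Hdac1-deficient (log2 -2.96, SE 0.11, adjusted p = 1.6e-14) and 7.34-fold lower in the Hdac2-deficient enteroids (log2 -2.88, SE 0.14, adjusted p = 1.2e-12). Rps15a-ps6 lies in an intron of Nudcd3 on the same strand, at chr11:6172644-6173036. It had 405, 367, 366 and 330 counts in control, 75, 134, 126 and 111 in the Hdac1-deficient and 88, 95, 58 and 82 in the Hdac2-deficient libraries, which gave log2 fold changes of -1.75 (SE 0.10, adjusted p = 7.0e-12) and -1.96 (SE 0.09, adjusted p = 9.2e-14). For both copies, every control library lay above every mutant library. The host gene Nudcd3 fell by 0.15 (adjusted p = 0.0013) and 0.25 (adjusted p = 5e-06) on the log2 scale.

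The remaining copies of this family had low counts. Rps15a-ps3 and Rps15a-ps5 were called in the Hdac2-deficient enteroids, at -1.36 and -1.27, where Rps15a-ps3 had 32 to 48 counts in control, 23 to 26 in the Hdac1-deficient and 6 to 15 in the Hdac2-deficient libraries. Rps15a-ps4, with 13 to 23 counts in control, passed the test in neither comparison (adjusted p = 0.16 in both). Rps15a-ps2 did not pass the filter on low counts, and had 18, 8, 11 and 11 counts in control, 3, 1, 0 and 2 in the Hdac1-deficient and 0, 0, 0 and 1 in the Hdac2-deficient libraries. These copies, outside the rule by which members were named, are given because they complete the family. The parent Rps15a had log2 fold changes of -0.17 in both comparisons, and the pseudogenes' share of its family was 5.84% to 6.11% in control, 1.52% to 1.61% in the Hdac1-deficient and 1.23% to 1.49% in the Hdac2-deficient libraries.

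**Figure D4:**
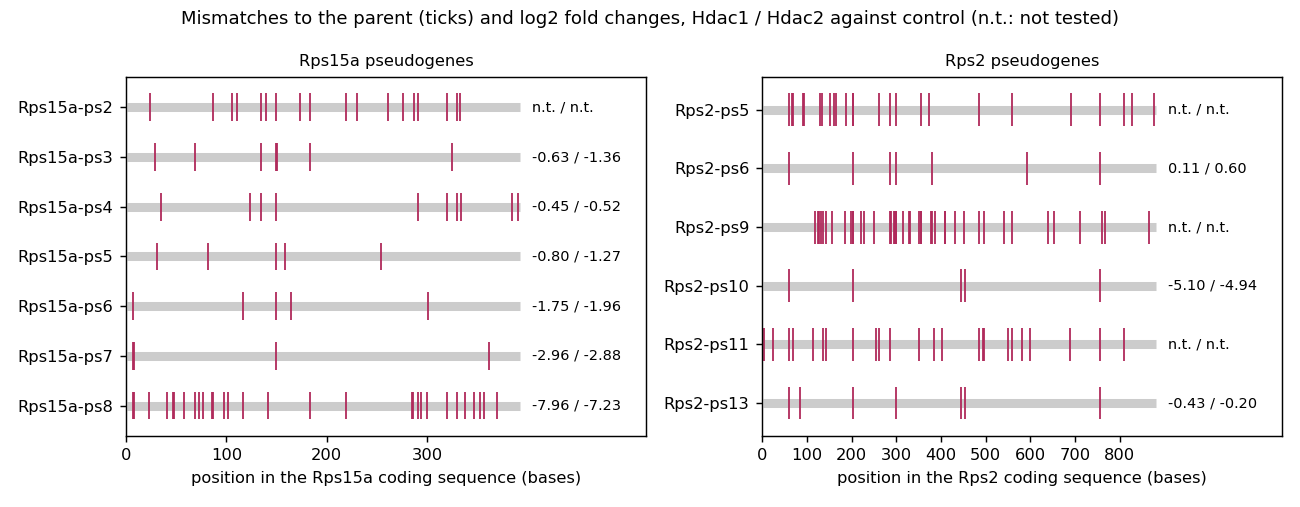
Positions at which each Rps15a (left) and Rps2 (right) pseudogene differs from its parent coding sequence (ticks along the coding sequence in bases), with its log2 fold change in the Hdac1-deficient and Hdac2-deficient enteroids at the right (n.t., not tested). Rps15a-ps8, whose plotted values are fitted on 0 to 2 counts per mutant library (at least 48.1-fold and 37.3-fold lower by their bounds), has 30 mismatches, while Rps2-ps10, at -5.10 and -4.94, has 5.

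Rpl3-ps1, on the X chromosome at chrX:13202571-13203780, is a nearly full-length copy of the gene for a large subunit protein near the peptidyl transferase centre. It had 4162, 3885, 4184 and 3420 counts in control, 1463, 1899, 1732 and 1550 in the Hdac1-deficient and 1672, 1388, 1108 and 1278 in the Hdac2-deficient libraries. The control libraries did not overlap with either mutant, and the fold changes were 2.41-fold and 2.46-fold lower (log2 -1.27 and -1.30, SE 0.04 each, adjusted p = 4.2e-16 and 8.0e-17). Its parent Rpl3 changed less, with log2 fold changes of -0.15 (adjusted p = 0.0023) and -0.07 (adjusted p = 0.069). With 94.8% of its 100-base stretches found in other transcripts, most of its sequence cannot be told from that of its relatives by a single read. Of its tested neighbours within 100 kb, Ddx3x had log2 fold changes of 0.15 and 0.17, Usp9x of 0.19 and 0.09, Llph-ps2 of 0.13 and 0.12, and 2010308F09Rik of 0.22 and 0.85. Some other called copies had called neighbours. Beside Rps2-ps10, Slc26a2 was at 1.07 and 1.55, while Ppargc1b was at 0.52 and 0.27 and Hmgxb3 at -0.08 and -0.22. Beside Rps24-ps3, Gm7173 was at -2.26 in the Hdac1-deficient enteroids, but at -0.02 between the mutants, where the copy differed by 4.15. In the Hdac2-deficient enteroids, 1 of 4 tested neighbours of Rpl31-ps11 was called (BC021767, 2.71), and 1 of 11 of Rps6-ps1 (Oplah, 3.24). Of the 4 beside Rps12-ps10, Duox2 (2.19) and Duoxa2 (2.04) were called. Between the mutants, 1 of 8 beside Rps19-ps6 was called, Mok. All these called neighbours went in the direction opposite to the copy. Of all genes tested against control, 6.87% and 5.45% were increased and 3.71% and 2.84% decreased. Any link was not tested.

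Both Rpl34 copies were lower beside a parent that rose slightly, a large subunit protein gene. These and Rpl15-ps2 were named after their values were seen. Rpl34-ps1 had 423 to 557 counts in control, 206 to 253 in the Hdac1-deficient and 168 to 257 in the Hdac2-deficient libraries (log2 -1.13 and -0.87, adjusted p = 4.1e-11 and 2.5e-09). Rpl34-ps2 had 18 to 29, 6 to 13 and 5 to 8 counts (log2 -1.19 and -1.41, adjusted p = 0.0018 and 0.00047). Rpl34 was the other parent that rose, at 0.21 and 0.17 (adjusted p = 0.00038 and 0.0049). Rpl15-ps2, in an intron of Tcf12 on the opposite strand, had 643 to 857 counts in control, 211 to 309 in the Hdac1-deficient and 369 to 524 in the Hdac2-deficient libraries, and the 3 groups did not overlap. It was called in the Hdac1-deficient enteroids alone (log2 -1.46, adjusted p = 6.8e-10, against -0.47, adjusted p = 1.5e-05).

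The Rps24 copies were the members that increased in the Hdac1-deficient enteroids. RPS24 is a small subunit protein needed for the maturation of its rRNA. Rps24-ps3, at chrX:79195047-79195448, had 181, 119, 157 and 121 counts in control, 1723, 2198, 2151 and 1861 in the Hdac1-deficient, and 107, 98, 61 and 107 in the Hdac2-deficient libraries. Every Hdac1-deficient library lay above all others, and once scaled to depth the Hdac2-deficient libraries overlapped with control. Its level went from 5.13 ± 0.763 CPM in control to 68.4 ± 3.00 in the Hdac1-deficient and 3.84 ± 0.693 in the Hdac2-deficient enteroids (SD, n = 4). It was 13.4-fold higher in the Hdac1-deficient enteroids (log2 3.75, SE 0.07, adjusted p = 3.3e-19), while its log2 fold change in the Hdac2-deficient enteroids was -0.40 (SE 0.13, adjusted p = 0.011). The mutants differed by 4.15 on the log2 scale (SE 0.08, adjusted p = 7.5e-22).

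Rps24-ps2, at chr3:3791898-3792292, is a more diverged copy, at 94.2% identity, with no 100-base stretch found elsewhere. It had 12, 7, 9 and 10 counts in control, 24, 34, 34 and 23 in the Hdac1-deficient and 4, 8, 2 and 4 in the Hdac2-deficient libraries. The Hdac1-deficient libraries lay above all the others, with a log2 fold change of 1.55 against control (SE 0.25, adjusted p = 2.2e-05) and 2.39 against Hdac2-deficient enteroids (SE 0.32, adjusted p = 6.6e-07). It was too low to be tested in the Hdac2-deficient enteroids against control. The parent Rps24 went the other way, with log2 fold changes of -0.59 (adjusted p = 2.3e-10) and -0.27 (adjusted p = 0.00023). Its pseudogenes took 0.502% to 0.655% of the family counts in control, 10.1% to 10.6% in the Hdac1-deficient and 0.424% to 0.655% in the Hdac2-deficient libraries. The family sum had a log2 fold change of -0.45 in the Hdac1-deficient enteroids, 0.15 above that of the parent alone.

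Rps19-ps6 was the only member called as increased in the Hdac2-deficient enteroids. RPS19 is a small subunit protein known from inherited anaemia, and the copy lies in an intron of Tecpr2 on the same strand, at chr12:110898114-110898551. It had 120, 108, 121 and 98 counts in control, 84, 123, 111 and 98 in the Hdac1-deficient and 377, 359, 294 and 442 in the Hdac2-deficient libraries. Hdac1-deficient and control libraries overlapped, and all Hdac2-deficient ones lay higher. It was 3.87-fold higher in the Hdac2-deficient enteroids (log2 1.95, SE 0.11, adjusted p = 8.4e-12), against -0.13 in the Hdac1-deficient enteroids (SE 0.11, adjusted p = 0.28). The parent Rps19 fell in both, at -0.40 and -0.41. The host Tecpr2 was at -0.01 and 0.00 on the same scale (adjusted p = 0.95 and 0.97). The copies of this family resemble each other, in that 4 of the 5 substitutions of Rps19-ps6 are held by all 5 members.

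The members called as decreased in the Hdac2-deficient enteroids also included Rpl21-ps8, a copy of a large subunit protein gene in an intron of Mbp on the opposite strand. It had 23, 24, 26 and 22 counts in control, 20, 16, 34 and 12 in the Hdac1-deficient and 2, 2, 2 and 5 in the Hdac2-deficient libraries, which lay under all the others. The log2 fold change was -2.83 (SE 0.36, adjusted p = 6.3e-07), against -0.24 in the Hdac1-deficient enteroids (SE 0.26, adjusted p = 0.43). The parent Rpl21 fell by 0.37 and 0.64 on the log2 scale. A further 8 members were called as decreased in this comparison and not in the other, at control counts of 15 to 59: Rps15a-ps3, Rps15a-ps5, Rps6-ps1, Rpl31-ps11, Rpl27-ps1, Rps12-ps10, Rps27a-ps2 and Rpsa-ps1. Their log2 fold changes were between -1.36 and -1.04 in the Hdac2-deficient and between -0.96 and -0.27 in the Hdac1-deficient enteroids. The direct test passed for 2 of them, Rps15a-ps3 (adjusted p = 0.036) and Rps6-ps1 (adjusted p = 0.039), both higher in the Hdac1-deficient enteroids. At any fold, 22.3% of all genes tested passed in that direction. Rps27a-ps2 lies in an intron of Lca5 on the opposite strand, and Lca5 fell too, at -0.77 in the Hdac1-deficient (adjusted p = 0.00041) and -0.70 in the Hdac2-deficient enteroids (adjusted p = 0.00091), beside -0.27 and -1.05 of the copy. Among the hosts of other called members on the opposite strand, Lrrc8d (Rps15a-ps5), Mbp (Rpl21-ps8) and Tcf12 (Rpl15-ps2) were at 0.15, -0.10 and -0.09 in the Hdac2-deficient and at -0.06, 0.04 and -0.18 in the Hdac1-deficient enteroids. No values are given for the hosts Pde6a (Rps2-ps10) and 1700045H11Rik (Rps15a-ps3).

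When the mutants were compared directly, 93 members were tested, with 4 higher and 1 lower in the Hdac1-deficient enteroids by more than 2-fold, where 2.74% and 2.89% of the 14510 genes tested were called. With no limit on the fold, 7 were higher and 11 lower, against 22.3% and 23.7% of all genes. All 4 Hdac1-deficient libraries lay above the Hdac2-deficient ones in CPM for 6 members and under them for 8, against 19.5% and 22.3% of all genes. The 4 called higher were Rps24-ps3, Rps24-ps2, Rpl21-ps8 (log2 2.59, SE 0.42, adjusted p = 1.3e-05) and Rpl31-ps12. Rpl31-ps12 had 12, 8, 10 and 10 counts in control, 7, 12, 16 and 8 in the Hdac1-deficient and 3, 3, 4 and 5 in the Hdac2-deficient libraries, and its log2 difference of 1.23 (SE 0.40, adjusted p = 0.014) became 1.00 and missed the threshold without Hdac1 replicate 3. Rps19-ps6 was the 1 called lower, at -2.09 (SE 0.10, adjusted p = 5.7e-15). Rpl15-ps2, at -0.99, joined it without Hdac1 replicate 1 or 3 or Hdac2 replicate 3 or 4, which gave 2 called members, and the count was 3 without Hdac1 replicate 2. The parents were close to each other in the mutants, with a median of -0.06.

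Of the parents, Rpl29, a large subunit protein gene, was the only one called. It had 9305 to 12208 counts in control, 7862 to 9353 in the Hdac1-deficient and 952 to 1097 in the Hdac2-deficient libraries, with log2 fold changes of -0.35 and -3.18 (SE 0.04 each, adjusted p = 4.4e-08 and 2.8e-21) and a difference between the mutants of 2.83 (SE 0.04, adjusted p = 2.2e-26). Its 1 listed pseudogene, Rpl29-ps2, had at most 2 counts in any library.

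Adding the pseudogenes to their parents left the results for most families where they were. The log2 fold change of the family sum lay within 0.02 of that of the parent for 45 of 52 families in the Hdac1-deficient and 46 in the Hdac2-deficient enteroids. It moved by more than 0.1 for 3 families (Rps2, Rps24 and Rps13) and 2 families (Rps2 and Rps13). The listed -ps pseudogenes took under 1% of the family counts in control for 36 families, with a median of 0.403%. They took more than 5% for the 6 families of Rps2, Rpl3, Rps13, Rpl15, Rpl34 and Rps15a. Copies under other symbols are not in these shares.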

How the data were processed

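Total RNA of jejunal enteroids was polyA-selected, made into directional libraries and sequenced as paired reads of 100 nt. The authors aligned them to GRCm38 with STAR (2.4.0f1 in the submitters' processing notes) and deposited raw counts per gene, 1 table per mutant with the same 4 control libraries. The counting program and its handling of reads with several matches are not given in the sources used here. Genes with a summed count under 10 over the 8 libraries of a table are not in it. Normalized values (16 columns) and the authors' own fold changes and p-values were not used.

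Counts were tested with edgeR 4.0.16 (R 4.3.3), quasi-likelihood F test, robust, with TMM normalization and filterByExpr. Each mutant was compared with control over its 8 libraries, and the mutants in a fit of all 12 libraries over genes listed in both tables. Adjustment (Benjamini-Hochberg) was over all genes tested, and the thresholds followed the study's methods. CPM use TMM factors (0.980 to 1.02). The test was checked on simulated counts with a single fixed spread, where only genes above a lower limit on the mean count were changed. The check therefore does not cover members with low counts. Common biological coefficients of variation were 0.0425, 0.0384 and 0.0394.

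Annotation and transcripts were from GENCODE M21. Pseudogene transcripts were aligned to the parent's principal coding sequence with Biopython 1.88. Named genes were the all-or-none members, up to 5 called members per direction and comparison with the largest change, the 5 members with the highest mean count, the parents of these, called parents, and Hdac1 and Hdac2. Genes outside this rule are said to be so where they appear or complete a family or a count. The members and gene lists were chosen with earlier results of these data known. Alternatives were DESeq2 1.42.0, other scalings and filters, other fits and leaving out each library. Whether same-numbered libraries pair was checked by the correlation of their deviations from group means.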

Additional observations from a re-analysis of the deposited data

Results flagged for a closer look

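In 3 of 39 groups of 4 libraries examined among the 13 named pseudogenes, 1 library stood far from the other 3 by Dixon's criterion, which chance gives in about 1 of 20 groups. Hdac2 replicate 4 was highest in its group for Rpl21-ps8 (0.217 CPM) and for Rps19-ps6 (19.2 CPM). Hdac1 replicate 4 stood apart for Rps2-ps10 (7.29 CPM), in a group whose SD was 0.0908 CPM.

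The direct test called 5 named members as differing by more than 2-fold between Hdac1-deficient and Hdac2-deficient enteroids. The log2 difference, Hdac1-deficient minus Hdac2-deficient, was 4.15 for Rps24-ps3, 2.59 for Rpl21-ps8, 2.39 for Rps24-ps2, 1.23 for Rpl31-ps12 and -2.09 for Rps19-ps6.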

How the results depend on the processing

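Removing the limit on the fold moved the counts most. Ribosomal protein pseudogenes then numbered 4 increased and 45 decreased in the Hdac1-deficient enteroids, 3 and 41 in the Hdac2-deficient enteroids, and 7 and 11 between the mutants. Parents numbered 2 and 50, 2 and 49, and 4 and 18. All 79 cytosolic ribosomal protein genes gave 3 and 76, 3 and 73, and 4 and 29. Other -ps pseudogenes gave 23 and 19, 18 and 15, and 16 and 14. With no filter on low counts, other -ps pseudogenes numbered 19 and 14 in the Hdac1-deficient and 13 and 13 in the Hdac2-deficient enteroids. Leaving out 1 library at a time gave 1 to 3 members lower in the Hdac1-deficient than in the Hdac2-deficient enteroids and 1 to 2 all-or-none members, and 0 were left when the absent group had to be at 0 counts. The other 402 recomputed counts and shares, DESeq2 and other scalings among them, stayed within 1.5 times the reported value. For single named genes, 1259 recomputed fold changes kept their side of the threshold, 30 passed it when the limit on the fold was removed, and 1 missed it (Rpl31-ps12, log2 1.00 without Hdac1 replicate 3).

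Same-numbered libraries of different groups had correlations of -0.188 to 0.204, against -0.194 to 0.225 for different numbers, and the best match had the same number in 10 of 24 cases, so the numbers were not taken to pair the libraries. With the replicate block the members called numbered 2 increased and 9 decreased in the Hdac1-deficient enteroids, 1 and 16 in the Hdac2-deficient enteroids, and 4 and 1 between the mutants, as without it. Counts under 10, as 63 members had on average, limit what could be tested, and intervals for such members rest on few reads. The cause of these movements was not tested beyond the construction of each alternative.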
